A study of Homo sapiens with 6 samples.

Results

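A set of 9 interferon-response genes was followed in MM1.S cells exposed to CCF642 or its analog CCF642-34, compounds developed against the protein disulfide isomerase PDIA1. They were the guanylate-binding protein genes GBP1, GBP2 and GBP3, the signal transducer STAT2, the interferon regulatory factors IRF1, IRF2, IRF7 and IRF9, and the ubiquitin-like modifier ISG15. The genes were chosen by name, with earlier results of these data known, and all 9 were present among the 11048 genes with deposited values. MM1.S is a human multiple myeloma line, a cancer of plasma cells, and every library came from this 1 line. Cells were exposed for 6 h to 3 µM CCF642, to 3 µM CCF642-34 or to the vehicle DMSO, with 2 libraries in each of the 3 groups. Nothing in the labels says that the replicates were separate cultures, so the p values measure the spread between these libraries, which may be technical. Libraries held between 20567313 and 28459677 reads, and values are CPM, in which the reads of a gene are divided by the size of its library. Of 11 plasma cell marker genes 10 were present, with a summed level of 9904 to 10003 CPM in DMSO, 7020 to 7054 CPM after CCF642 and 7866 to 7911 CPM with CCF642-34. Markers of other cell types were few: 1 of 5 B cell, 1 of 6 T cell, 1 of 6 monocyte and 2 of 4 epithelial markers had values, with summed levels of 13.4 CPM or less, and 2 of 5 fibroblast markers (COL1A1 and PDGFRB) summed to 2.74 to 2.85 CPM in DMSO, 10.6 to 11.7 CPM after CCF642 and 4.01 to 4.68 CPM after CCF642-34. The part of these shifts in the results was not tested.

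Type I interferons bind the receptor IFNAR and activate the kinases JAK1 and TYK2, which phosphorylate STAT2. STAT2 and IRF9 are subunits of the complex ISGF3, which binds the interferon-stimulated response element (ISRE) in promoters. Interferon-gamma acts mainly through the gamma-activated site (GAS) and induces IRF1. IRF1 activates many interferon-inducible genes, IRF2 binds similar elements and often opposes it, and IRF7 drives interferon gene expression after infection. Guanylate-binding proteins are interferon-inducible GTPases that act against microbes inside cells, and ISG15 is attached to other proteins much as ubiquitin is.

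GBP3, GBP1 and GBP2 lie near one another on the minus strand of chromosome 1, at chr1:89006666-89022894, chr1:89052319-89065360 and chr1:89106132-89150456 in GENCODE annotation of GRCh38. The other genes lie on chromosomes 12 (STAT2), 5 (IRF1), 4 (IRF2), 11 (IRF7), 14 (IRF9) and 1 (ISG15). RefSeq promoter windows of GRCh38.p14, 250 bases before to 50 bases after the transcript start, were matched for 6 of the 9 genes (GBP1, GBP3, STAT2, IRF1, IRF9 and ISG15). Each window was searched on both strands for the core of the ISRE (GAAA, 2 bases of any kind, GAAA) and of the GAS (TTC, 3 bases of any kind, GAA). The parts that hold a match are shown because GBP1 and GBP3 carried the same letters while their transcripts moved in opposite directions in these cells. Capitals mark the matched letters, and each sequence reads 5′ to 3′ on the strand of its gene.
GBP1: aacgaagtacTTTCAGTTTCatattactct
GBP3: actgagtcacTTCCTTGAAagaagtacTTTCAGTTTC
IRF1: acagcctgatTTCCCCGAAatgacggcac
IRF9: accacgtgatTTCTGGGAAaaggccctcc
ISG15: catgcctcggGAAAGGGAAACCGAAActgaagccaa
The GBP1 sequence is chr1:89065316-89065345 on the minus strand and holds an ISRE core in reverse orientation. This core lies before the transcript start of the RefSeq window, at positions -127 to -118 from it. It lies inside the GENCODE span of GBP1 given above. The GBP3 sequence is chr1:89022855-89022891 on the minus strand and holds a GAS core followed by the same reverse ISRE core. In GBP3 the GAS core lies at -15 to -7, while the ISRE core lies at 3 to 12, after the RefSeq start. The GBP3 sequence also lies inside the GENCODE span of its gene. A run of 17 letters, gaagtacTTTCAGTTTC, was common to both. The IRF1 sequence (chr5:132490879-132490907, minus strand) and the IRF9 sequence (chr14:24161192-24161220, plus strand) each hold 1 GAS core. The ISG15 sequence (chr1:1013374-1013409, plus strand) holds 2 overlapping ISRE cores. The STAT2 window held neither. Of 35116 RefSeq windows of this length, 3.57% held an ISRE core and 7.66% a GAS core. Among the 13061 of these windows that belong to genes with deposited values, the shares were 3.00% and 6.07%. A match is a description of the letters and does not show that a factor bound there.

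Treatment lowered GBP1 and raised IRF1, IRF7, IRF9 and GBP3 with both compounds, while IRF2 fell with both. GBP2 and STAT2 passed the test with CCF642-34 and not with CCF642, and ISG15 passed with CCF642 and not with CCF642-34. Fold changes here are on the scale of log2(CPM + 1) after TMM scaling, which corrects for differences in library composition, and the pseudocount of 1 makes them smaller for genes of low level. Genes were called at an adjusted p under 0.05 over all 11048 genes.

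**Figure D1:**
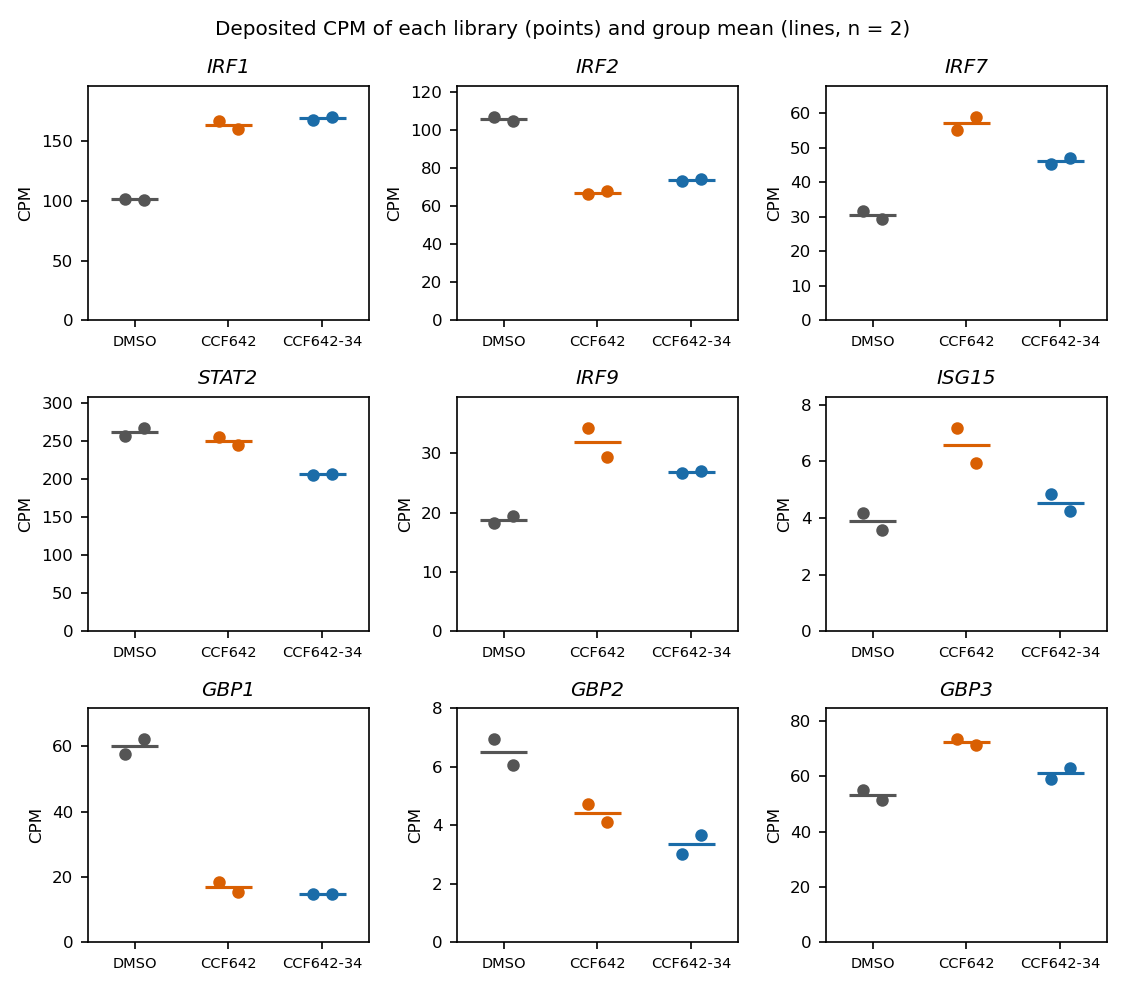
Deposited CPM (vertical axis, linear, from 0) of each of the 9 genes in the DMSO, CCF642 and CCF642-34 groups, with a point for each library and a line at the group mean (n = 2). GBP1 falls from 57.6 and 62.4 CPM in DMSO to 18.5 CPM or less in the 4 treated libraries, and IRF1 rises from 102 and 100.5 CPM to at least 160.0 CPM.

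The regulatory factors moved in different directions. IRF1 stood at 102 and 100.5 CPM in DMSO, 167 and 160.0 CPM with CCF642, and 168 and 170.4 CPM with CCF642-34. All 4 treated libraries were above both DMSO libraries, and the compounds reached almost the same level. IRF1 rose by 0.82 on the log2 scale with CCF642-34 (SE 0.0487, adjusted p = 9.26e-20) and by 0.82 with CCF642 (adjusted p = 7.19e-20). Between the compounds its log2 difference was 0.0051, with a 95% interval from -0.093 to 0.10 (adjusted p = 0.951).

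IRF2, which can compete with IRF1 for the same elements, went the other way. Its levels were 107 and 105 CPM in DMSO, 66.3 and 68.0 CPM with CCF642, and 73.3 and 74.4 CPM with CCF642-34. The 3 groups did not overlap, and DMSO was the highest. IRF2 decreased by 0.43 on the log2 scale with CCF642-34 (SE 0.0571, adjusted p = 1.15e-08) and by 0.52 with CCF642 (adjusted p = 5.39e-11). The difference of 0.092 between the compounds did not pass the test (95% interval -0.023 to 0.21, adjusted p = 0.223).

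IRF7, the factor that amplifies interferon production, showed a larger response to CCF642 than to CCF642-34. It was at 31.8 and 29.4 CPM in DMSO, 55.3 and 59.1 CPM with CCF642, and 45.4 and 46.9 CPM with CCF642-34. The 3 groups were ordered without overlap, DMSO lowest and CCF642 highest. IRF7 rose 2.02-fold with CCF642 (log2 1.01, adjusted p = 7.79e-17) and by 0.67 on the log2 scale with CCF642-34 (SE 0.0729, adjusted p = 6.40e-11). Its level was lower with CCF642-34 than with CCF642, by a log2 difference of -0.35 (adjusted p = 0.000207).

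The ISGF3 subunits IRF9 and STAT2 did not move together. IRF9 was at 18.3 and 19.4 CPM in DMSO, 34.3 and 29.4 CPM with CCF642, and 26.6 and 27.0 CPM with CCF642-34. Every treated library exceeded DMSO, and the lower CCF642 library was closer to the CCF642-34 libraries than to its own replicate. IRF9 rose by 0.57 on the log2 scale with CCF642-34 (SE 0.0912, adjusted p = 4.99e-07) and by 0.85 with CCF642 (adjusted p = 2.37e-11). Its log2 difference of -0.28 between the compounds passed the test (adjusted p = 0.0150) but not without the first CCF642 library (adjusted p = 0.212), the first CCF642-34 library (0.0891) or the second (0.071). In GENCODE 29, 48.4% of the exon bases of IRF9 also belong to a readthrough gene on the same strand, AL136295.5, which is not among the 11048 genes.

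STAT2 was measured at 257 and 268 CPM in DMSO, 256 and 245 CPM with CCF642, and 206 and 207 CPM with CCF642-34. The CCF642-34 libraries were the lowest, and the CCF642 libraries lay just under DMSO on the deposited scale. STAT2 decreased by 0.25 on the log2 scale with CCF642-34 (SE 0.0436, adjusted p = 2.39e-06). With CCF642 its log2 difference from DMSO was 0.065 after TMM scaling (95% interval -0.022 to 0.15, adjusted p = 0.192) and -0.069 with scaling by library size alone, so that the sign depended on the scaling. STAT2 was lower with CCF642-34 than with CCF642 by a log2 difference of -0.32 (adjusted p = 9.17e-08), the lowest adjusted p of the 9 genes in that comparison.

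ISG15 was expressed at a low level. It was at 4.18 and 3.60 CPM in DMSO (96 and 77 reads), 7.20 and 5.93 CPM with CCF642 (148 and 134 reads), and 4.85 and 4.24 CPM with CCF642-34 (138 and 118 reads). Both CCF642 libraries were above the other 4, and the CCF642-34 libraries lay just above DMSO. ISG15 rose with CCF642 by 0.74 on the log2 scale (95% interval 0.41 to 1.06, adjusted p = 9.48e-05). With CCF642-34 the difference of 0.25 did not pass the test (95% interval -0.069 to 0.58, adjusted p = 0.175). The compounds differed by -0.48 on the log2 scale (adjusted p = 0.0169), a call that was lost without the first CCF642 library (adjusted p = 0.142) or the second CCF642-34 library (0.148) and with DESeq2 (0.0594).

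Among the guanylate-binding proteins, GBP1 showed the largest change of the 9 genes with either compound. GBP1 stood at 57.6 and 62.4 CPM in DMSO, 18.5 and 15.5 CPM with CCF642, and 14.8 and 14.9 CPM with CCF642-34. Both treated groups were far below DMSO and did not overlap with each other. The fitted level was 3.62-fold lower with CCF642-34 (log2 -1.86, SE 0.0927, adjusted p = 1.45e-22) and 3.10-fold lower with CCF642 (log2 -1.63, adjusted p = 1.21e-20). Ordered by fitted log2 fold change, GBP1 was number 2 from the lowest of all 11048 genes with CCF642-34 and number 21 with CCF642. These ranks come from the main fit alone, in which the pseudocount makes the changes of genes of low level smaller. Between the compounds the log2 difference was -0.22 (95% interval -0.41 to -0.037), which did not pass the test (adjusted p = 0.0573) and passed it without the second CCF642 library (0.00542) and with DESeq2 size factors (0.0485).

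GBP2 was measured at 6.96 and 6.07 CPM in DMSO, 4.72 and 4.12 CPM with CCF642, and 3.02 and 3.67 CPM with CCF642-34. These values came from 86 to 160 reads per library, and both DMSO libraries were the highest. GBP2 decreased by 0.72 on the log2 scale with CCF642-34 (SE 0.163, adjusted p = 0.000206). With CCF642 its log2 difference from DMSO was -0.36 (95% interval -0.69 to -0.030, adjusted p = 0.0521), on the edge of the threshold, and it passed without the first CCF642 library (0.0429). The 2 compounds were separated by -0.36, with a 95% interval from -0.69 to -0.027 and an adjusted p of 0.0879.

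GBP3 rose where its neighbours did not. Its levels were 55.1 and 51.5 CPM in DMSO, 73.7 and 71.2 CPM with CCF642, and 59.2 and 63.1 CPM with CCF642-34. The groups were ordered without overlap, DMSO lowest and CCF642 highest. GBP3 rose by 0.28 on the log2 scale with CCF642-34 (SE 0.0638, adjusted p = 0.000172) and by 0.57 with CCF642 (adjusted p = 9.78e-11), and the compounds differed by -0.28 (adjusted p = 0.000435). GBP1 and GBP3 thus moved in opposite directions with each compound. Relative to the RefSeq starts used, the ISRE core they share in the sequences above lies before the start in GBP1 and after it in GBP3. In GENCODE annotation it lies inside the span of both genes, so this contrast depends on the annotation. Reads from near-identical stretches could be divided between these genes: in GENCODE 29 transcripts, 3.40% of the 50-base stretches of GBP1 were found in GBP3 and 9.62% in any other gene of the family (GBP2 to GBP7 and the pseudogene GBP1P1). The shares shared with any other family gene were 10.2% for GBP2 and 4.40% for GBP3.

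**Figure D2:**
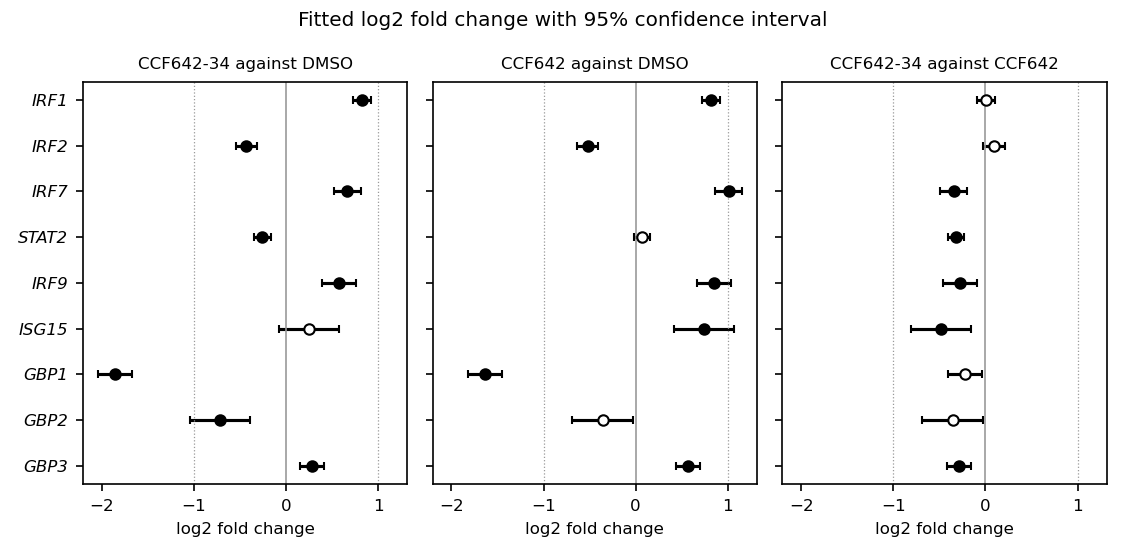
Fitted log2 fold change (horizontal axis) of the 9 genes in 3 comparisons, with 95% confidence intervals, filled points where the adjusted p was under 0.05 and dotted lines at 2-fold. GBP1 lies at -1.86 with CCF642-34 and -1.63 with CCF642, and in the direct comparison the 5 filled points all lie below 0.

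With CCF642-34, 8 of the 9 genes were called against DMSO, 4 higher and 4 lower, where 57.6% of all tested genes were called (29.7% higher and 27.9% lower). With CCF642, 7 were called, 5 higher and 2 lower, against 63.1% of all genes (31.8% higher and 31.3% lower). With scaling by library size alone, the calls over all genes shifted to 22.6% higher and 36.0% lower for CCF642-34 and to 22.9% higher and 42.9% lower for CCF642, while the 9 genes gave 4 higher and 4 lower, and 5 higher and 3 lower. A change of at least 2-fold was met by GBP1 alone with CCF642-34, against 3.87% of all genes (1.29% lower), and by GBP1 and IRF7 with CCF642, against 6.49% (4.5% higher and 1.99% lower). IRF7 was at the edge of that criterion and dropped below it without the second DMSO library or the second CCF642 library, which left 1 gene. The median absolute log2 change of the 9 genes was 0.57 with CCF642-34 and 0.74 with CCF642, beside 0.25 and 0.29 for all genes. Because the 9 genes were chosen with earlier results of these data known, these contrasts with all genes are descriptive only. Both comparisons share the DMSO libraries.

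In the direct comparison of the compounds at the same dose and time, 5 of the 9 genes were called (GBP3, IRF7, IRF9, ISG15 and STAT2), and all 5 were lower with CCF642-34, where 33.4% of all genes were called (17.4% lower and 15.9% higher). Without the first CCF642 library, or without the second CCF642-34 library, 3 were called. In 0 of the 9 genes did the compounds differ by 2-fold, against 0.308% of all genes (0.299% lower and 0.00905% higher), and edgeR, voom and DESeq2 also gave 0. The median log2 difference was -0.28 for the 9 genes and 0.0093 for all genes. The 4 genes not called were GBP1, GBP2, IRF1 and IRF2, whose intervals are given above. On the scaled values, groups did not overlap for 8 of the 9 genes between the compounds, all but IRF1, against 63.4% of all genes. Against DMSO they did not overlap for any of the 9 with either compound, against 78.9% of all genes for CCF642-34 and 79.4% for CCF642.

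Levels could be compared between genes only per length, as CPM per kilobase of merged GENCODE 29 exons. In DMSO the order was STAT2 at 43.0 ± 1.24 (SD, n = 2) and IRF2 at 34.1 ± 0.507, then IRF1 at 13.0 ± 0.124, GBP3 at 12.4 ± 0.589, GBP1 at 12.0 ± 0.678 and IRF7 at 11.6 ± 0.648 CPM per kilobase. From IRF1 to IRF7, each gene lay within about 1 SD of the next in this order, taking the larger SD of the pair. The ends of this run did not overlap, with IRF1 at 13.06 and 12.89 and IRF7 at 12.10 and 11.18 CPM per kilobase. IRF9 at 4.96 ± 0.209 and ISG15 at 4.13 ± 0.434 were lower, and GBP2 was the lowest at 1.04 ± 0.0998 CPM per kilobase. After CCF642, IRF7 stood at 21.8, beside IRF2 at 21.5 and IRF1 at 20.9, and GBP1 fell to 3.41, under ISG15 at 6.97. After CCF642-34 the order from the highest was STAT2 at 33.8, IRF2 at 23.7, IRF1 at 21.7, IRF7 at 17.6 and GBP3 at 14.2, with IRF9 at 7.07, ISG15 at 4.83, GBP1 at 2.97 and GBP2 at 0.533. STAT2 was the highest and GBP2 the lowest in all 3 groups.

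Profiles over the 6 libraries were compared by the Euclidean distance between log2 values, each gene centred on its own mean, so that a smaller distance is a closer match. Among the 9 genes the nearest pair was IRF7 and IRF9, at 0.304, followed by GBP3 and ISG15 at 0.315. For the genes past 2-fold with either compound, GBP1 and IRF7, the 3 nearest of all genes were sought. Those nearest to GBP1 were CCNE1, which encodes cyclin E1, at 0.179, INAFM2 at 0.410 and UNG, the uracil-DNA glycosylase, at 0.415. CCNE1 had log2 changes of -1.76 with CCF642-34 and -1.58 with CCF642, close to those of GBP1, and UNG had -1.51 and -1.54. Distances were smaller for IRF7, whose nearest were RASA2 at 0.0323, RELL1 at 0.0723 and MAP2K3, a kinase of the p38 pathway, at 0.0945. The profiles were not scaled, so distances also depend on the size of the change, which was larger for GBP1. MAP2K3 had log2 changes of 0.66 with CCF642-34 and 1.02 with CCF642. None of these 6 genes was among the 9 or on the interferon list described next.

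**Figure D3:**
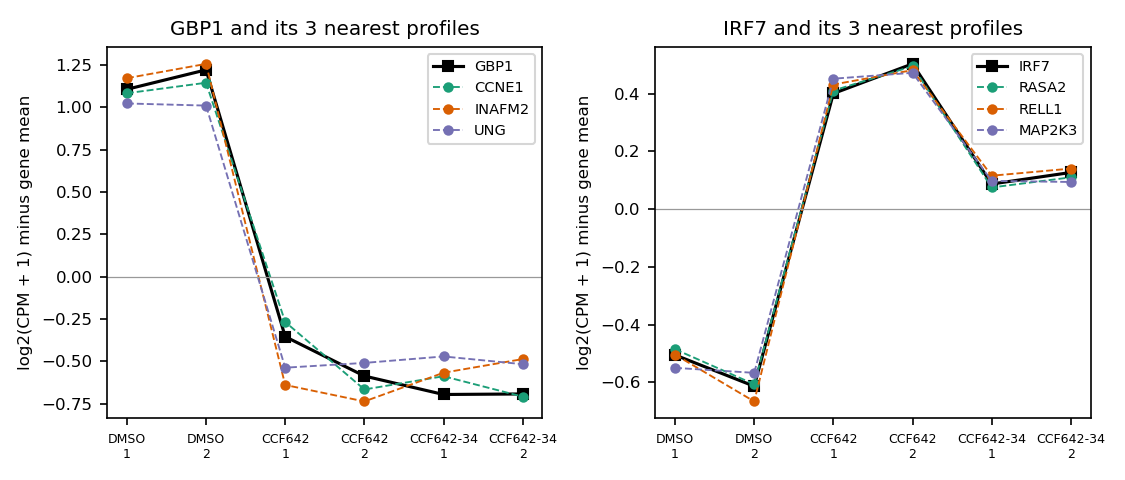
Centred log2(CPM + 1) (vertical axis) of GBP1 and of IRF7 with the 3 genes nearest to each, in the 6 libraries (horizontal axis). GBP1, CCNE1, INAFM2 and UNG are high in both DMSO libraries and low in the 4 treated ones, while IRF7 and its neighbours are lowest in DMSO and highest with CCF642.

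The rest of the pathway was followed with a hand-written list of 110 genes, of which 82 had values. None of 5 interferon ligand genes (IFNA1, IFNB1, IFNE, IFNG and IFNL1) was among the 11048 genes, and the deposited set holds no gene below 1.5 CPM in its highest library. With CCF642-34, 28 of the 82 genes rose and 22 fell (34.1% and 26.8%), beside 29.7% and 27.9% of all genes. With CCF642, 32 rose and 21 fell (39.0% and 25.6%), beside 31.8% and 31.3%. Under scaling by library size alone 23 genes were called higher and 31 lower with CCF642-34, and 27 higher against 29 lower with CCF642. After TMM scaling, the median log2 change of the list was 0.021 with CCF642-34 and 0.067 with CCF642.

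**Figure D4:**
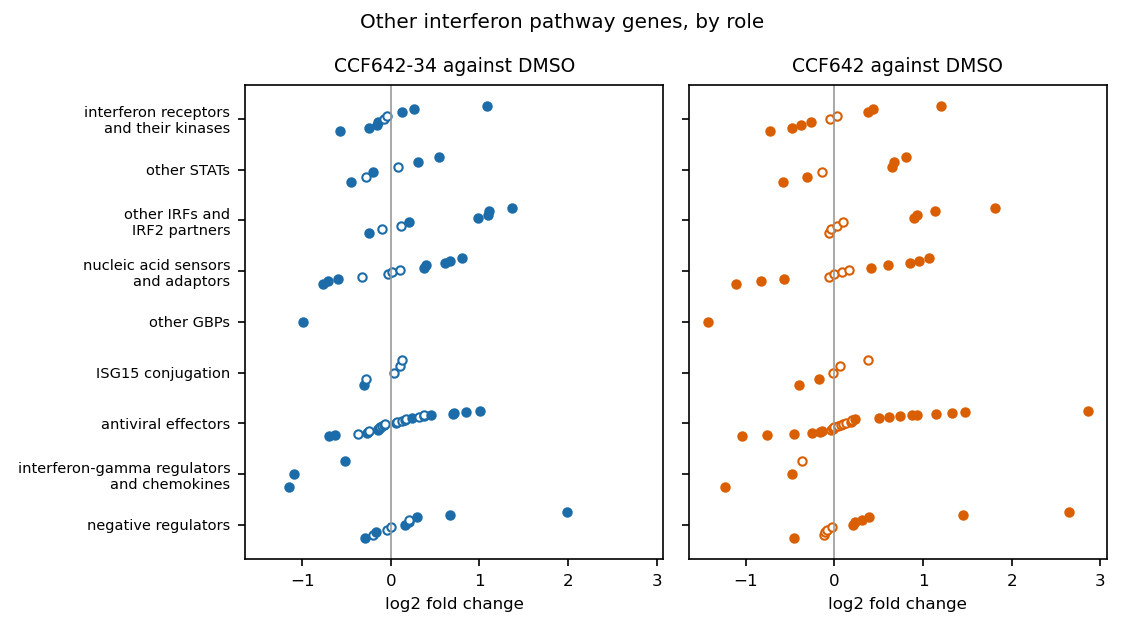
Fitted log2 fold change against DMSO (horizontal axis) of the 82 other interferon pathway genes by role (vertical axis), with a point for each gene, filled where the adjusted p was under 0.05. Most roles hold genes on both sides of 0, and GBP4 and the interferon-gamma regulators lie to the left of it with both compounds.

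Receptor genes moved in both directions. IFNGR1, the ligand-binding chain of the interferon-gamma receptor, was at 31.7 ± 1.73 CPM in DMSO, 67.4 ± 4.48 CPM after CCF642 and 64.1 ± 1.65 CPM with CCF642-34 (SD, n = 2). It rose by 1.08 on the log2 scale with CCF642-34 (adjusted p = 1.38e-18) and by 1.20 with CCF642 (adjusted p = 2.06e-20). IFNAR2, a chain of the type I receptor, was at 193 ± 0.929 CPM in DMSO, 106 ± 1.01 CPM after CCF642 and 121 ± 2.59 CPM with CCF642-34. It decreased by 0.58 with CCF642-34 (adjusted p = 3.04e-14) and by 0.73 with CCF642 (adjusted p = 7.69e-18). IFNGR2, the other chain of the interferon-gamma receptor, was named after its values were seen, and it fell with both compounds, by log2 changes of -0.16 with CCF642-34 (adjusted p = 0.0426) and -0.26 with CCF642 (adjusted p = 0.00096). Of the 9 receptor and kinase genes, 3 rose and 4 fell with each compound. The shares of all genes called were 29.7% higher and 27.9% lower with CCF642-34, and 31.8% higher and 31.3% lower with CCF642.

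Of 6 other STAT genes, 2 rose and 2 fell with CCF642-34, and 3 rose and 2 fell with CCF642. STAT4, which acts downstream of interleukin-12, rose with CCF642 from 66.1 ± 0.386 to 106 ± 0.0772 CPM (log2 0.80, adjusted p = 2.62e-16). With CCF642-34 it was at 65.9 ± 5.45 CPM, which did not pass the test against DMSO (log2 0.082, adjusted p = 0.247) and was lower than with CCF642 by a log2 difference of -0.72 (adjusted p = 9.99e-14). STAT3 rose with both, by 0.55 and 0.67. Of 8 further IRF genes and partners of IRF2, 5 rose and 1 fell with CCF642-34, and 4 rose and 0 fell with CCF642 by limma. With CCF642, 0 were lower also at an unadjusted p under 0.05 and with edgeR, voom and DESeq2. Of all genes, 29.7% were higher and 27.9% lower with CCF642-34, and 31.8% higher and 31.3% lower with CCF642. The 0 of 8 was not tested against these shares. IRF2BP2, whose product binds IRF2 and represses its targets, went from 215 ± 5.53 CPM in DMSO to 688 ± 4.18 CPM after CCF642 and 525 ± 31.1 CPM with CCF642-34. Its log2 changes of 1.81 with CCF642 and 1.37 with CCF642-34 were opposite in sign to those of IRF2.

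The 12 nucleic acid sensors and adaptors with values split into 5 that rose and 3 that fell with each compound. Among all genes, 29.7% were called higher and 27.9% lower with CCF642-34, and 31.8% higher and 31.3% lower with CCF642. MYD88, the adaptor of Toll-like receptors, fell from 22.8 ± 0.421 CPM to 9.11 ± 0.509 CPM after CCF642 and 12.7 ± 0.514 CPM with CCF642-34. TRAF6, which acts just after it, rose from 33.8 ± 0.276 CPM to 65.8 ± 0.110 CPM and 48.9 ± 0.588 CPM. GBP4 was the only further guanylate-binding protein gene with values. GBP4 was at 6.35 and 7.57 CPM in DMSO, 1.85 and 1.64 CPM with CCF642, and 2.81 and 2.77 CPM with CCF642-34. All 4 treated libraries were below DMSO, with log2 changes of -1.43 with CCF642 (adjusted p = 1.34e-09) and -0.99 with CCF642-34 (adjusted p = 4.97e-06). Against DMSO GBP4 thus moved in the direction of GBP1, while between the compounds it was higher with CCF642-34 (log2 0.44, adjusted p = 0.0496).

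Among 3 interferon-gamma regulators and chemokines with values, 3 fell with CCF642-34 and 2 with CCF642. Called lower among all genes were 27.9% with CCF642-34 and 31.3% with CCF642, and the counts were not tested against these shares. CIITA, the master regulator of MHC class II genes, fell from 22.6 ± 1.78 CPM to 8.22 ± 0.677 CPM after CCF642 and 9.03 ± 0.202 CPM with CCF642-34 (log2 -1.23 and -1.15). CXCL10, a chemokine that attracts T cells, was at 3.48 and 3.60 CPM in DMSO and at 1.41 and 0.719 CPM with CCF642-34 (log2 -1.09, adjusted p = 9.83e-06), while the 2.29 and 2.30 CPM with CCF642 did not pass the test (log2 -0.36, adjusted p = 0.117). Of 11 negative regulators, 5 rose and 2 fell with CCF642-34, and 6 rose and 1 fell with CCF642. The shares of all genes called were 29.7% higher and 27.9% lower with CCF642-34, and 31.8% higher and 31.3% lower with CCF642. SOCS3, an inhibitor of JAK kinases, was at 0.783 and 1.17 CPM in DMSO, 10.3 and 10.8 CPM with CCF642, and 7.24 and 5.86 CPM with CCF642-34. SOCS1, another such inhibitor, rose by 1.46 with CCF642 and by 0.67 with CCF642-34, and the compounds differed by -0.79 (adjusted p = 0.00016).

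Of 5 genes for enzymes that attach ISG15 to proteins or remove it, 0 rose and 2 fell with CCF642 by limma. With CCF642-34, 0 rose and 1 fell. Of all genes, 31.8% were higher and 31.3% lower with CCF642, and 29.7% higher and 27.9% lower with CCF642-34. With only 5 genes, the counts of 0 were not tested against these shares. The counts of 0 held at an unadjusted p under 0.05 and with edgeR, voom and DESeq2. HERC5, the main ligase for ISG15, fell from 47.4 ± 0.168 CPM to 32.5 ± 3.15 CPM after CCF642 and 35.9 ± 2.28 CPM with CCF642-34 (adjusted p = 1.74e-05 and 0.000861). UBE2L6, its conjugating enzyme, fell with CCF642 (log2 -0.18, adjusted p = 0.0204) and had a log2 difference of 0.11 with CCF642-34 (adjusted p = 0.173), and it was higher with CCF642-34 than with CCF642 (log2 0.29, adjusted p = 0.00083).

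Among the 27 antiviral effectors with values, 11 rose and 6 fell with CCF642, and 8 rose and 5 fell with CCF642-34. The shares of all genes called were 31.8% higher and 31.3% lower with CCF642, and 29.7% higher and 27.9% lower with CCF642-34. OASL, which is related to the oligoadenylate synthetases, was at 0.348 and 0.234 CPM in DMSO, 8.61 and 7.30 CPM with CCF642, and 0.457 and 0.719 CPM with CCF642-34. The CCF642 libraries held 177 and 165 reads and the other 4 held 5 to 20. OASL rose with CCF642 by 2.86 on the log2 scale (adjusted p = 1.67e-16), and with CCF642-34 it was lower than with CCF642 by -2.54 (adjusted p = 9.12e-14). DDX60, a helicase that promotes RNA sensing, was at 0.435 and 0.420 CPM in DMSO, 2.58 and 3.01 CPM with CCF642, and 0.492 and 0.576 CPM with CCF642-34. Its difference between the compounds was -1.34 (adjusted p = 7.50e-06). Of the 27 effectors, 8 were lower and 2 higher with CCF642-34 than with CCF642, where 17.4% of all genes were lower and 15.9% higher.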

How the data were processed

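Polyadenylated RNA of 6 MM1.S libraries was sequenced. The authors deposited CPM for 11048 genes per library, a unit read from the values, and per the labels the notes name STAR, edgeR 3.24.3, limma 3.38.3 and hg19. Whole reads were recovered for all values within a tolerance of 0.01. The annotation and strandedness are not given in the sources used here.

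TMM-scaled CPM were tested as log2(CPM + 1) with limma 3.58.1 (R 4.3.3; edgeR 4.0.16 for TMM), all 3 groups in 1 fit (3 residual degrees of freedom, prior 42.9), two-sided, with Benjamini-Hochberg adjustment over all genes. The 2-fold criterion required an unadjusted p under 0.05. The scripts were tested on simulated data. Alternatives used recovered reads with edgeR, voom and DESeq2 1.42.0.

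The 9 genes and the lists were chosen with earlier results of these data known. At most 2 genes per role of the pathway list were named, those called against DMSO with the largest absolute log2 change, with the 3 nearest profiles for genes past 2-fold. Some genes are not reported here. Exon lengths came from GENCODE 29 (GRCh38), and promoters from RefSeq (GRCh38.p14).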

Additional observations from a re-analysis of the deposited data

How the results depend on the processing

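With 2 libraries per group and 1 cell line, the limits are the number of libraries and, for genes of low level, the reads behind each value. Such genes were GBP2, ISG15, GBP4, CXCL10, SOCS1, SOCS3, OASL, DDX60 and IFIT3. CXCL10 had 40 and 20 reads with CCF642-34, SOCS3 had 18 and 25 in DMSO, and IFIT3 had 7 and 8 with CCF642-34. Of 507 log2 fold changes of the 9 genes under alternatives, 484 kept their direction and their side of the threshold, 8 passed it anew, 10 lost it and 5 turned sign. GBP2 and ISG15 gave no value with a mean CPM of at least 5 required, and single pathway genes were not run under alternatives. The sign turned for STAT2 with CCF642 under library size alone (-0.069, adjusted p = 0.161) and for IRF1 between the compounds with DESeq2 size factors (-0.0031), DESeq2 on reads (-0.0031), without the second CCF642 library (-0.021) and without the second CCF642-34 library (-0.0035), its range with 1 library left out being -0.021 to 0.031. Without variance shared across genes, the calls between the compounds dropped from 5 to 1 of the 9 genes and from 32 to 9 of the 82 pathway genes, as 739 of all genes were called in place of 3685. The genes past 2-fold with CCF642 dropped from 2 to 1 under library size alone and with a pseudocount of 2 or 4. Leaving out 1 library at a time gave 3 to 6 calls among the 9 genes between the compounds and 1 to 2 genes past 2-fold with CCF642. GBP2 with CCF642 passed the test under library size alone (adjusted p = 0.0105), with a pseudocount of 2 (0.0431) or 4 (0.0335) and with only those groups fitted (0.049). Over all genes, 428, 717 and 34 genes passed 2-fold (CCF642-34, CCF642, and between the compounds), against 668, 996 and 114 with edgeR, 670, 1006 and 116 with voom, and 470 with CCF642 at a pseudocount of 4. The median of all genes moved to -0.13 with CCF642 under library size alone. A replicate block gave 8, 7 and 6 calls in place of 8, 7 and 5, adding GBP1 between the compounds (adjusted p = 0.0489), while same-numbered libraries did not deviate together (correlations across 10311 genes of -0.027, -0.058 and 0.070), so the numbers are not taken as pairs. The causes were not tested.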

Other observations

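IRF4 and C5orf56 were chosen after their values were seen. IRF4, a factor on which myeloma cells depend, was at 670 ± 17.6 CPM in DMSO, 1137 ± 14.0 CPM after CCF642 and 1356 ± 2.76 CPM with CCF642-34 (SD, n = 2). IRF4 rose by 0.90 with CCF642 and by 1.11 with CCF642-34, and it was higher with CCF642-34 than with CCF642 (log2 0.21, adjusted p = 6.37e-06), where IRF7 and IRF9 were lower.

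C5orf56 overlaps IRF1 on the opposite strand, and 22.0% of the exon bases of IRF1 in GENCODE 29 lie within it. Without a stated strand, reads in the overlap cannot be told apart. C5orf56 was at 23.7 ± 0.173 CPM in DMSO, 15.4 ± 2.10 CPM after CCF642 and 20.3 ± 0.640 CPM with CCF642-34. The part of the overlap in the values of IRF1 was not tested.

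IFIT3, an antiviral effector, was at 0.522 and 0.561 CPM in DMSO, 0.924 and 3.10 CPM with CCF642, and 0.246 and 0.288 CPM with CCF642-34. IFIT3 was also chosen after its values were seen, and its CCF642 replicates differed more from each other than the lower of them did from DMSO.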
